A study of Saccharomyces cerevisiae with 6 samples.

Results

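The transcripts of 60 genes that encode the RNA polymerase II transcription machinery of budding yeast, Saccharomyces cerevisiae, were compared between a histone H2B mutant, K111A, and its wild type. The genes were chosen by name, as subunits of RNA polymerase II, the general initiation factors, TFIIH, Mediator and the elongation factors. The rule used no measured value, but the list was drawn up with earlier results of these data known. A probe set was matched for 59 of the 60 genes, out of 5449 genes measured, and SRB4 was not analysed here. The mutant is strain WY317, in which an alanine replaces a lysine of H2B, and the wild type is strain PY014 with unchanged H2B, with 3 single-channel arrays of each. Both strains were harvested from mid-log cultures in rich glucose medium (YPD) at an optical density of 0.35 to 0.7, and biotin-labelled cRNA was made from about 20 µg of total RNA. The sources used here name no other allele of either strain, and they do not say whether the replicates came from separate cultures, so that p-values cover only the spread among these arrays, part of which may be technical.

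RNA polymerase II transcribes all messenger RNA genes. General factors place it at the promoter, TFIIH opens the DNA there, and Mediator carries signals from DNA-bound activators and repressors to the polymerase. As the polymerase moves into the gene, kinases phosphorylate the repeats at the C-terminal domain (CTD) of its largest subunit and the elongation factor Spt5, and histone chaperones take nucleosomes apart ahead of the enzyme and rebuild them behind it. H2B is a core histone of those nucleosomes, and the Paf1 complex, which travels with the polymerase, is needed for the ubiquitin mark on H2B.

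Values are linear intensities that the authors had brought to a common scale. Array means over all probe sets lay between 146 and 148, and within a strain the arrays had correlations of 0.997 to 0.998 across genes. Differences are mutant minus wild type on the scale of log2(intensity + 32), which understates the change of dim genes, and were tested with limma at an adjusted p threshold of 0.05. Probe sets on the same array that matched no budding yeast gene, and were taken as those of fission yeast, set the background. Their 99th percentile was an intensity of 3.7. All 59 genes lay above it on all 6 arrays. Levels of different genes come from different probe sets and were not set against each other. The sources do not name the mating type. The a-cell markers MFA1, MFA2, STE2 and BAR1 read between 386.6 and 891.5 on all 6 arrays, while the alpha-cell markers read between 1.8 and 5 (MF(ALPHA)1), between 10.8 and 21.7 (STE3) and between 55.8 and 71.8 (SAG1). STE3 was the only gene of these 7 past the threshold, and it read 11.7 ± 1.47 in the mutant and 21.4 ± 0.46 in wild type (SD, n = 3 each).

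Most genes of the machinery differed little between the strains. Of 59 genes, 2 rose in the mutant (SPT5 and SSN8) and 2 fell (SRB2 and SPT4), together 6.78%, where 14.5% of all 5449 genes passed the same threshold, 6.92% higher and 7.62% lower. The difference between these shares was not tested. The count of 4 dropped to 2 without mutant array 1 or 2 and to 0 without mutant array 3, where 5.56%, 8.35% and 3.91% of all genes passed. Without wild-type array 1, 2 or 3 the count was 5, 3 and 5, where 8.75%, 9.74% and 10.3% of all genes passed. An unadjusted p under 0.05 was reached by 15 of the 59 genes (25.4%), against 31.7% of all genes, and the values of the strains did not overlap for 18 genes (30.5%), against 36.7% of all genes. The median difference was -0.007 over the 59 genes and -0.0005 over all genes, and the median size of the difference was 0.065 in both sets. The 95% interval of the difference lay within 0.2 either way for 40 of the 59 genes and within 0.3 for 56. On this scale, a difference of 0.3 or more lay outside the interval for these 56. The intervals do not bound the change of dim genes, which the added 32 compresses. With 1 added in its place, the log2 difference of SSN8, 1 of the 56, was 0.33 rather than 0.16. Since the cultures were measured in bulk and the arrays scaled, fewer cells with a transcript and less of it per cell cannot be told apart.

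**Figure D1:**
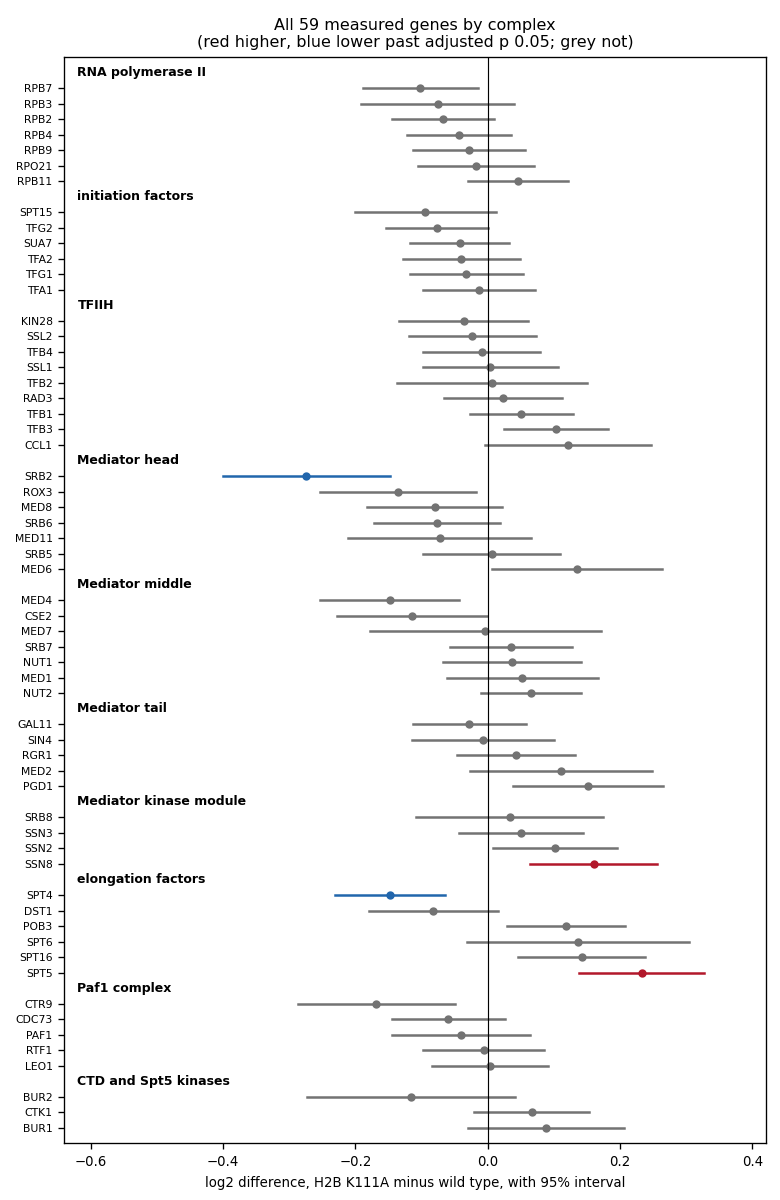
Difference between H2B K111A and wild type (horizontal axis, log2, mutant minus wild type) for the 59 measured genes, grouped by complex and sorted within it, with 95% intervals from limma. SPT5 and SSN8 (red) lie right of 0 and SRB2 and SPT4 (blue) left of 0 past the adjusted threshold, while the other 55 genes (grey) did not pass.

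SPT5, the large subunit of the Spt4-Spt5 elongation factor (DSIF), which rides on the polymerase and holds it on the DNA, rose in the mutant. Its intensity was 137.4, 142.7 and 147.6 on the mutant arrays, against 122.4, 117.3 and 110.1 on the wild-type arrays. Every mutant array was above every wild-type array. The means were 143 ± 5.10 in the mutant and 117 ± 6.18 in wild type (SD, n = 3 each), a ratio of 1.22 and a log2 difference of 0.23 ± 0.04 (SE, adjusted p = 0.0114 in limma). Only 4.53% of all genes had a larger difference. The call was kept without 5 of the 6 arrays and lost without mutant array 3 (adjusted p = 0.0526).

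SPT4, the small zinc-finger subunit of the same factor, moved the other way. It read 303.4, 303 and 302 on the mutant arrays, against 324.6, 342 and 350.5 on the wild-type arrays, again with no overlap. The mutant mean of 303 ± 0.72 was 1.12-fold lower than the wild-type mean of 339 ± 13.2 (SD, n = 3 each), with a log2 difference of -0.15 ± 0.04 (SE, adjusted p = 0.0315). This call was lost when any array other than wild-type array 1 was left out (adjusted p = 0.101 without mutant array 3, the highest), and also with a pseudocount of 1 (adjusted p = 0.0607).

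Among the other elongation factors, the genes of the histone chaperone FACT, SPT16 and POB3, lay just outside the threshold on the high side. FACT loosens nucleosomes by binding H2A-H2B dimers. SPT16 read 496.1, 518.3 and 522.7 in the mutant, against 486.3, 456.7 and 441.9 in wild type, and the arrays of the strains did not overlap. Its log2 difference was 0.14, with a 95% interval of 0.05 to 0.24 and an adjusted p of 0.0552. POB3 read 424.3, 428.6 and 446.2 in the mutant, against 386.5, 388.9 and 414.1 in wild type. Its log2 difference was 0.12, with an interval of 0.03 to 0.21 and an adjusted p of 0.0751. Both genes passed with quantile normalization (adjusted p = 0.0437 and 0.0350). SPT16 also passed with arrays centred on their medians (0.0449), with a pseudocount of 100 and with a variance prior that followed intensity. Neither gene passed with a pseudocount of 1 (adjusted p = 0.0979 and 0.116) or with the replicate number as a block (0.123 and 0.111). Each passed in only 1 of the 6 fits that left out 1 array, with adjusted p up to 0.169 for SPT16 and 0.225 for POB3. SPT6, another histone chaperone, read 213.7, 243 and 244 in the mutant, against 236.8, 205.1 and 188.1 in wild type. Its arrays overlapped, and its interval ran from -0.03 to 0.30. DST1, which encodes TFIIS, the factor that restarts stalled polymerase, read 312 ± 13.5 in the mutant and 332 ± 13.3 in wild type (SD, n = 3 each), with an interval of -0.18 to 0.02.

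The 6 elongation factors therefore spread more widely than the other groups. The SD of their log2 differences was 0.15, against 0.13 for the Mediator head, the next widest group, and 0.11 over all 5449 genes. Their values did not overlap between strains for 5 of 6, 3 of them higher and 2 lower in the mutant. Of all genes, 36.7% did not overlap, 18.2% higher and 18.6% lower. DST1 was separated only narrowly, with a highest mutant value of 320.4 and a lowest wild-type value of 320.9 (adjusted p = 0.228 in limma). Over 12 further elongation genes, listed apart from these 6, the SD was 0.08. Of those 12, 2 did not overlap, 1 higher and 1 lower. The arrays did not contribute equally. The median deviation of the 6 genes from their own means was 0.009, 0.07 and 0.10 on mutant arrays 1, 2 and 3, against 0.009, -0.08 and -0.07 on wild-type arrays 1, 2 and 3. Mutant array 1 and wild-type array 1 were thus nearly level, and the other arrays of the strains lay apart.

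**Figure D2:**
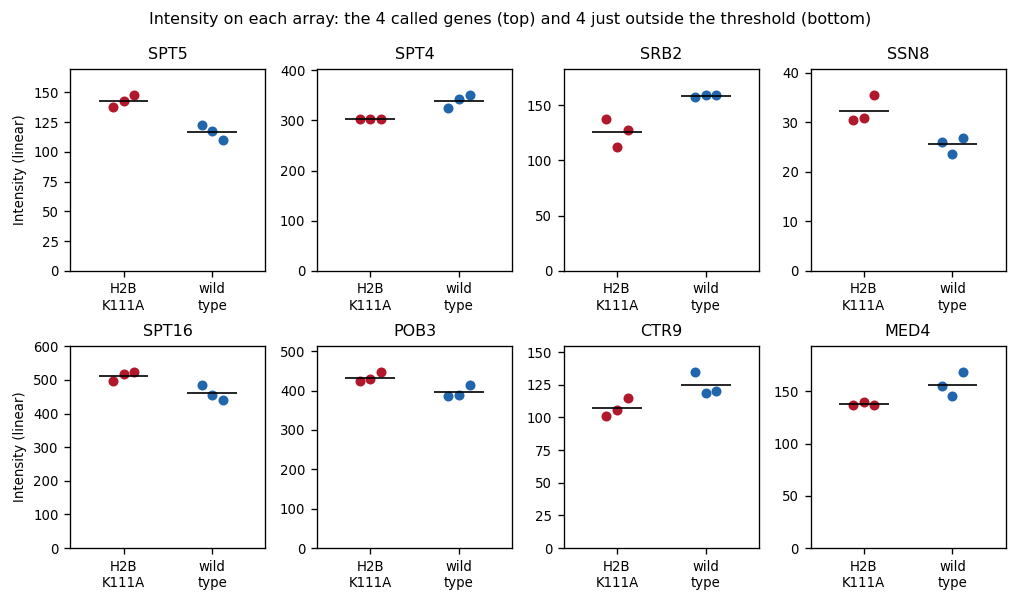
Linear intensity (vertical axis, from 0) on each of the 3 H2B K111A arrays (red, left) and the 3 wild-type arrays (blue, right), with the mean as a line, for the 4 genes past the threshold (top row) and the 4 genes nearest outside it (bottom row). The arrays of the strains do not overlap in any of these 8 genes.

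In the Paf1 complex no gene passed, and 4 of the 5 differences were negative. The lowest was that of CTR9, a scaffold subunit, which read 100.8, 106 and 115.2 in the mutant, against 134.5, 118.6 and 120.6 in wild type. The strains did not overlap, and the difference was -0.17, with an interval of -0.29 to -0.05 and an adjusted p of 0.0618. It passed with quantile normalization (adjusted p = 0.0353), median centring (0.0435) and array weights (0.0477). It passed in 0 of the 6 fits that left out 1 array (up to 0.176), and not with a pseudocount of 1 (0.0989). RTF1, the subunit most directly tied to H2B ubiquitination, read 304 ± 10.6 in the mutant and 306 ± 11.6 in wild type (SD, n = 3 each), with an interval of -0.10 to 0.09. LEO1, the highest of the complex, had a difference of 0.003, and those of PAF1 and CDC73 were -0.04 and -0.06.

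The 3 genes of the elongation kinases did not pass either. BUR1, the kinase of Spt5 and of the CTD, read 217, 216.1 and 219.7 in the mutant, against 220.8, 203.4 and 185.7 in wild type. Its cyclin BUR2 read 127.9, 129.2 and 124.2 in the mutant, against 161.4, 123.4 and 138.5 in wild type. For both genes the mutant arrays lay close together, with an SD of 1.87 for BUR1 and 2.59 for BUR2, against 17.6 and 19.1 in wild type. CTK1, the main CTD kinase of elongating polymerase, had a difference of 0.07, with an interval of -0.02 to 0.15.

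The genes of the polymerase itself differed little. The median size of their log2 differences was 0.046, and that of the initiation factors 0.041, against 0.065 over all genes. The SD, which measures only the spread around a group's own mean, was 0.05 and 0.03, against 0.11 over all genes. Values did not overlap between strains for 3 of the 7 polymerase genes (42.9%) and 2 of the 6 initiation factors (33.3%). Of all genes, 36.7% did not overlap. RPO21, the largest subunit with the catalytic centre and the CTD, read 337.8, 340.3 and 337.2 in the mutant, against 347.4, 326.2 and 355.9 in wild type. Its arrays overlapped, and the interval of the difference was -0.10 to 0.07. RPB2, the second largest subunit, read 422.9, 408.1 and 405.6 in the mutant, against 440.3, 425.4 and 434.7 in wild type, with no overlap and a difference of -0.07 (adjusted p = 0.212). RPB7, of the Rpb4-Rpb7 stalk, had the lowest difference of the 7 subunits, with 334.4, 330.9 and 330.9 in the mutant against 350.4, 348.6 and 377.6 in wild type. That difference was -0.10, with an interval of -0.19 to -0.01 and an adjusted p of 0.108. RPB11, which pairs with Rpb3 in the assembly platform of the enzyme, had the highest at 0.05, and RPB3, RPB4 and RPB9 lay at -0.08, -0.04 and -0.03. All 7 intervals lay within 0.2 either way.

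None of the 6 initiation factor genes passed, and all 6 differences were negative, between -0.09 and -0.01. SPT15, which encodes the TATA-binding protein TBP, read 676.1, 665.8 and 653.4 in the mutant, against 727.6, 662.5 and 749.1 in wild type. Its arrays overlapped, and the interval of -0.20 to 0.01 was the widest of the group. TFG2, a TFIIF subunit, read 286, 277.5 and 288.3 in the mutant, against 304.8, 293.9 and 304.4 in wild type, without overlap (difference -0.08, adjusted p = 0.162). SUA7, which encodes TFIIB, also did not overlap, at a difference of -0.04. The TFIIE genes TFA1 and TFA2 and the other TFIIF gene, TFG1, lay at -0.01, -0.04 and -0.03.

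TFIIH, which holds the DNA translocase Ssl2, the repair helicase Rad3 and a kinase module that phosphorylates the CTD, had no gene past the threshold, 6 positive and 3 negative differences and a median of 0.007 (0.05 without wild-type array 1). The highest members belonged to the kinase module. CCL1, the cyclin, read 88.6, 95.8 and 94.3 in the mutant, against 92.4, 74.7 and 82 in wild type, with overlap. TFB3, the module's assembly factor, read 138.1, 147.2 and 144.2 in the mutant, against 130.9, 132.9 and 129.3 in wild type, without overlap. Its difference was 0.10, with an interval of 0.02 to 0.18 and an adjusted p of 0.0782. The kinase gene KIN28 was the lowest of the 9, at -0.04. The core genes RAD3, SSL1, SSL2, TFB1, TFB2 and TFB4 lay between -0.02 and 0.05.

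Of 23 measured Mediator genes 1 rose and 1 fell, together 8.70%, beside 14.5% of all genes (6.92% higher and 7.62% lower), and the fall was the largest among the 59. SRB2 encodes Med20, which with Med18 forms a movable part of the head module, the part that contacts the polymerase. SRB2 read 137.8, 112 and 127.5 in the mutant, against 157.4, 158.7 and 159 in wild type. The mutant arrays were all lower and spread widely, while those of the wild type were almost level. The mean was 1.26-fold lower in the mutant, at 126 ± 13.0 against 158 ± 0.85 (SD, n = 3 each), with a log2 difference of -0.27 ± 0.06 (SE, adjusted p = 0.0170). Only 2.37% of all genes had a larger difference. The call was lost without mutant array 3 (adjusted p = 0.0582) and kept without any of the other 5 arrays.

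The rest of the head module did not pass. SRB5, the gene of the Med18 partner, read 66.3, 57.5 and 64.3 in the mutant, against 58.5, 64.2 and 64.1 in wild type, a difference of 0.006 with an interval of -0.10 to 0.11. ROX3 (Med19) read 323.4, 320.7 and 300.7 in the mutant, against 347, 325.3 and 375.9 in wild type, without overlap (difference -0.14, adjusted p = 0.113). MED6 was the highest of the head, at 127 ± 10.6 in the mutant and 112 ± 7.41 in wild type (SD, n = 3 each), a difference of 0.13 with overlapping arrays and an adjusted p of 0.143. MED8, MED11 and SRB6 lay between -0.08 and -0.07.

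In the middle module, which links head and tail, MED4 lay nearest to the threshold. It read 136.6, 139.4 and 136.8 in the mutant, against 155.3, 145.1 and 168.2 in wild type, without overlap. Its difference was -0.15, with an interval of -0.25 to -0.04 and an adjusted p of 0.0631. Of the 6 fits that left out 1 array, it passed only without wild-type array 2 (adjusted p = 0.0354, up to 0.164 in the others). CSE2 (Med9) read 106, 99.9 and 100.2 in the mutant, against 102.5, 118.4 and 119 in wild type, with overlap and a difference of -0.11 (adjusted p = 0.154). Of the same 6 fits, CSE2 passed only without wild-type array 1 (adjusted p = 0.0430, up to 0.324 in the others). NUT2 (Med10), the highest of the module at 0.07, was the dimmest of all 59 genes, at 12.3 ± 0.80 in the mutant and 10.3 ± 0.61 in wild type (SD, n = 3 each), a ratio of 1.19 that the added 32 compresses on the log2 scale. MED1, NUT1, SRB7 and MED7 lay between -0.003 and 0.05.

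The tail module, the main landing site of activators, had no gene past the threshold. PGD1 (Med3), its highest, read 53.6, 61 and 60.5 in the mutant, against 44.9, 49.6 and 53.6 in wild type, where mutant array 1 and wild-type array 3 gave the same value. Its difference was 0.15, with an interval of 0.04 to 0.27 and an adjusted p of 0.0752. Of the 6 fits that left out 1 array, it passed only without wild-type array 3 (adjusted p = 0.0476, up to 0.214 in the others). MED2 followed at 0.11 with overlapping arrays. GAL11 (Med15), the activator target with the lowest difference of the tail, lay at -0.03, with SIN4 at -0.007 and RGR1, the backbone subunit Med14, at 0.04.

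All 4 genes of the kinase module, which binds Mediator reversibly and keeps it from the polymerase, had positive differences, and 1 passed. SSN8, which encodes cyclin C, read 30.5, 30.9 and 35.5 in the mutant, against 26, 23.7 and 26.9 in wild type. The strains did not overlap, and mutant array 3 stood above mutant arrays 1 and 2. The means were 32.3 ± 2.78 in the mutant and 25.5 ± 1.65 in wild type (SD, n = 3 each), a ratio of 1.27, with a log2 difference of 0.16 ± 0.04 (SE, adjusted p = 0.0375). With a pseudocount of 1, which compresses this dim gene less, the log2 difference was 0.33 (adjusted p = 0.0443), and with a pseudocount of 100 the call was lost (0.0746). It was also lost when any array other than wild-type array 3 was left out (adjusted p = 0.124 without mutant array 3, the highest). SSN2 (Med13) read 68.7, 69.2 and 72.9 in the mutant, against 65.2, 66.2 and 58.6 in wild type, without overlap (difference 0.10, adjusted p = 0.127). SSN3, the kinase Cdk8, lay at 0.05 and SRB8 (Med12), the lowest of the module, at 0.03, both with overlap.

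Many of these proteins work in fixed pairs, and 10 such pairs of binding partners were set side by side. The differences had the same sign in 5 pairs and opposite signs in the other 5. The widest gap was that of the SPT5 and SPT4 genes, whose differences of 0.23 and -0.15 lay 0.38 apart. The log2 ratio of SPT5 to SPT4, taken around its own mean over the 6 arrays, was 0.14, 0.19 and 0.24 in the mutant, against -0.08, -0.19 and -0.30 in wild type, so that the strains did not overlap. For SRB2 and SRB5 the gap was -0.28, for BUR1 and BUR2 0.20 and for KIN28 and CCL1 -0.16, also without overlap. The gap of SRB2 and SRB5 was nearly all that of SRB2 (-0.27), since SRB5 lay at 0.006. Of the 10 ratios, 4 did not overlap, beside 36.7% of all single genes. The share among ratios of other gene pairs was not computed. No test is given, since the pairs were chosen after the values were seen, and for SPT5 and SPT4, which each did not overlap and in opposite directions, the ratio could not overlap either. SPT16 and POB3, the FACT pair, had the smallest gap, at 0.02, and the TFIIE and TFIIF pairs differed by 0.03 and 0.04.

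**Figure D3:**
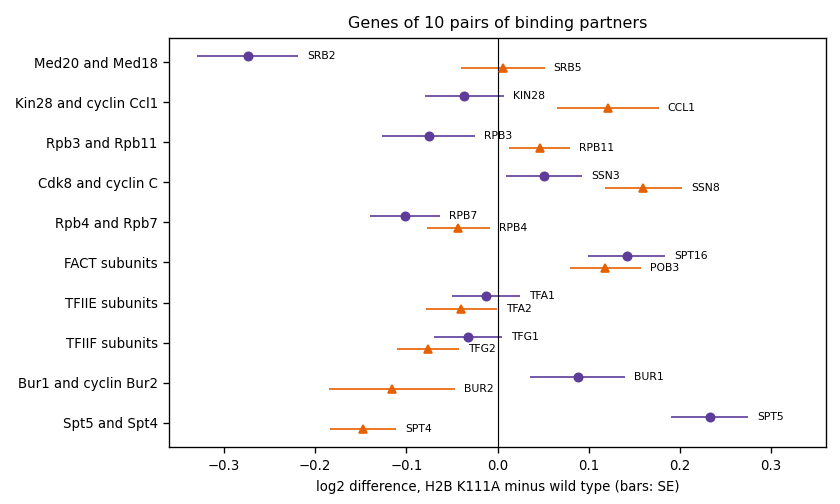
Difference between H2B K111A and wild type (horizontal axis, log2, mutant minus wild type, bars are SE from limma) for both genes of 10 pairs of binding partners. The partners SPT5 and SPT4 lie on opposite sides of 0, at 0.23 and -0.15, while SPT16 and POB3 lie together at 0.14 and 0.12.

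The medians of the complexes were small and of either sign. The median difference was -0.04 for the polymerase, -0.04 for the initiation factors, -0.08 for the Mediator head and -0.04 for the Paf1 complex. It was 0.04 for the Mediator middle and tail modules, 0.08 for the kinase module, 0.13 for the elongation factors and 0.07 for the 3 kinase genes, beside -0.0005 over all genes. On single arrays, the medians of the polymerase, the initiation factors and the Mediator head were lower on each mutant array than on any wild-type array. Those of the Mediator kinase module and of the elongation factors were higher on each mutant array, and those of the other 5 groups overlapped. For the elongation factors, mutant array 1 (0.0091) and wild-type array 1 (0.0088) were nearly level. The polymerase genes had median deviations of -0.04, -0.001 and -0.02 on the mutant arrays, against 0.02, 0.003 and 0.05 on the wild-type arrays, so that the gap between mutant array 2 and wild-type array 2 was narrow. These medians are descriptions of small groups of genes, with no test, and several rested on single arrays. Nearest to 0, the median was -0.007 for the Paf1 complex without wild-type array 3, 0.01 for the Mediator tail without wild-type array 1, -0.02 for the polymerase without mutant array 1 and -0.04 for the Mediator head without wild-type array 2. Without wild-type array 3 it was 0.03 for the 3 kinase genes and 0.04 for the Mediator kinase module. The median of the Mediator middle was -0.002 without mutant array 3.

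**Figure D4:**
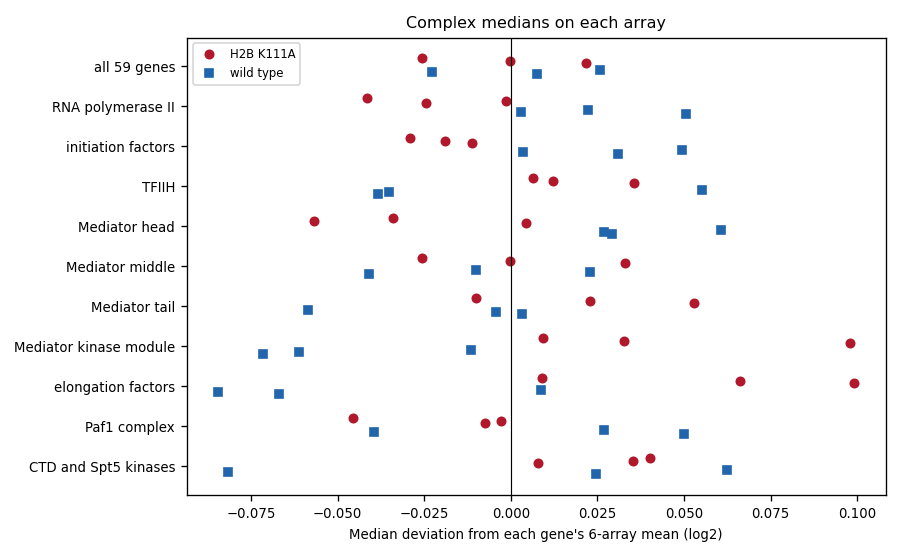
Median deviation of the genes of each complex from their own mean over the 6 arrays (horizontal axis, log2) on the H2B K111A arrays (red circles) and the wild-type arrays (blue squares). The medians over all 59 genes overlap between strains, while those of the polymerase, the initiation factors and the Mediator head lie lower and those of the Mediator kinase module and the elongation factors higher on the mutant arrays. For the elongation factors, mutant array 1 and wild-type array 1 are nearly level.

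Gene length, which the choice of genes did not use, was weakly correlated with the difference, in a comparison chosen after the values were seen. Across the 59 genes the Spearman correlation of gene length in the RefSeq table with the difference was 0.39, against 0.09 across all 5449 genes, and it was 0.28 across the 53 genes other than the elongation factors. These are correlations across genes that share the same 6 arrays, not independent replicates. Of the 20 shortest genes, from SPT4 with 309 to RPB3 with 957 bp, 15 had a negative difference, and their median was -0.08, while all genes in that range of lengths had a median of -0.006. Of the 20 longest, from SSN3 with 1668 to RPO21 with 5202 bp, 12 had a positive difference, with a median of 0.04 against 0.01 for all genes of such length. The shortest 20 had median deviations of -0.03, -0.04 and -0.02 on the mutant arrays, against 0.02, 0.02 and 0.03 on the wild-type arrays, without overlap. The longest 20 had -0.01, 0.01 and 0.05 on the mutant arrays, against 0.03, -0.03 and -0.04 on the wild-type arrays, and overlapped, with wild-type array 1 above mutant arrays 1 and 2. The 19 genes between them overlapped too, at -0.02, 0.01 and 0.03 on the mutant arrays, against 0.04, -0.04 and 0.01 on the wild-type arrays. SPT5 (3192 bp), SPT16 (3108 bp) and SPT6 (4356 bp) are long and SPT4 is the shortest of the 59, while CTR9 (3234 bp) had a low difference at the same length. The part of length in the differences was not tested. The mean level also correlated with the difference, at -0.30 across the 59 genes and -0.02 across all genes.

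**Figure D5:**
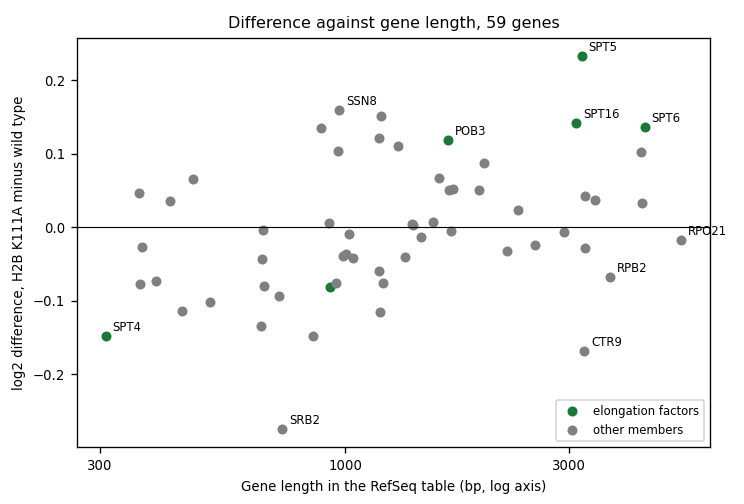
Difference between H2B K111A and wild type (vertical axis, log2, mutant minus wild type) against gene length (horizontal axis, bp, log scale) for the 59 genes, with the elongation factors in green. Of the 20 shortest genes, 15 lie below 0, SPT4 and SRB2 among them, and 5 above. Of the 20 longest, 12 lie above 0, among them the elongation factors SPT5, SPT16 and SPT6, and 8 below, with CTR9 the lowest. The Spearman correlation is 0.39.

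Of the transcription genes outside the 60, 53 of the 54 listed were measured, of which 3 rose and 1 fell, together 7.55%, beside the 14.5% of all genes. TAF2, a TFIID subunit that contacts promoter DNA, read 145.6, 150.9 and 153.3 in the mutant, against 123.6, 126.5 and 122.5 in wild type, without overlap. It rose 1.21-fold (log2 difference 0.22 ± 0.03, SE, adjusted p = 0.00679) and kept its call without each of the 6 arrays in turn. It was the only one of the 13 TFIID genes to pass, and the other 12 lay between -0.07 and 0.09. CHD1, a nucleosome remodeler that travels with elongating polymerase, read 195, 193 and 193.5 in the mutant, against 171.9, 173.6 and 169.6 in wild type, and rose 1.13-fold (adjusted p = 0.0187). It was the only one of 12 further elongation genes to pass, and it lost its call without mutant array 1, 2 or 3 (adjusted p up to 0.0688). With the replicate number as a block, CHD1 lost its call too (adjusted p = 0.0653), while TAF2 kept its own (0.0266).

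CEG1, which encodes the guanylyltransferase of the mRNA capping enzyme, read 137.6, 141.9 and 147.5 in the mutant, against 126.6, 122.2 and 125.7 in wild type. It rose 1.14-fold (adjusted p = 0.0260), while its partner CET1 and the cap methyltransferase gene ABD1 lay at -0.03 and -0.02. TFB5, a small subunit of TFIIH that is not among the 60, read 136.8, 146.1 and 144.8 in the mutant, against 159.8, 165.7 and 157.9 in wild type. It was 1.13-fold lower (adjusted p = 0.0321), the only one of 6 further initiation and Mediator genes to pass, of which 5 had negative differences. The call of CEG1 was lost without mutant array 2 or 3 or wild-type array 1 or 2 (adjusted p up to 0.0996). That of TFB5 was lost when any array other than wild-type array 3 was left out (up to 0.102). With the replicate number as a block both genes lost their calls (adjusted p = 0.0710 and 0.0748), and TFB5 also with a pseudocount of 1 (0.0544). No gene passed among the 5 polymerase subunits shared with RNA polymerases I and III or the 4 TBP regulators. None passed among the 3 measured CTD phosphatase genes or the 7 termination genes either. In that order, limma gave 2, 1, 0 and 1 genes at an unadjusted p under 0.05 (40%, 25%, 0% and 14.3%). Of all genes, 31.7% reached it. RPB5 and RPB8, of the shared subunits, both lay at -0.12.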

How the data were processed

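RNA of 3 H2B K111A and 3 wild-type samples was measured on single-channel arrays. The deposited table holds linear intensity values that the authors had already scaled, by a method that is not given in the sources used here. Of 10928 probe sets, 7244 have 1 gene symbol in the array annotation. Of these, 5498 matched a RefSeq R64 gene, and the 1746 that did not were taken as those of another organism. The brightest probe set over the 6 arrays was kept for each gene, which left 5449. Each of the 59 genes has 1 probe set, and BUR1 was matched through its synonym SGV1. Values were log2(intensity + 32), with array medians from 7.56 to 7.59 and no further scaling. The test was limma 3.58.1 (lmFit, eBayes; R 4.3.3), two-sided with 8.91 degrees of freedom, p-values were adjusted over all genes by Benjamini-Hochberg, and the procedure was tested on simulated data. The 60 genes, the complexes and the other lists were chosen with earlier results of these data known. Every one of the 60 was to be described, and of other lists the genes past the threshold. The pairs and the length comparison were chosen after the values were seen. Lengths in the RefSeq table are nearly all multiples of 3 and are coding lengths, with any intron. The alternatives changed the pseudocount, scaling, array weights, variance prior, probe set or threshold, dropped dim genes, blocked on the replicate number, or left out each array in turn. Promoter motifs were not analysed here. No scan dates are given, so batches could not be examined, and the number of arrays limits the precision. Figures were drawn with matplotlib 3.10.9.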

Additional observations from a re-analysis of the deposited data

How the results depend on the processing

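The 4 genes past the threshold, the 6 with adjusted p between 0.05 and 0.1 and the 4 called genes of the other lists kept their direction in all 15 alternatives that refit the data, and 44 of the 59 genes did. The 15 that changed sign had differences of 0.037 or less in size. Of all genes, 377 rose and 415 fell, and with a pseudocount of 1 these counts were 232 and 257, at an adjusted p under 0.01 they were 70 and 89, and over the fits without each array in turn they ran from 91 to 271 and from 122 to 294. Of the 59 genes, 7 passed with quantile normalization in place of 4, beside 16.6% of all genes. Of these 7, 4 rose in place of 2, and SRB2, SPT4 and CTR9 fell. With a pseudocount of 1, 1 fell in place of 2, and 8.97% of all genes passed. At an adjusted p under 0.01 in limma, 0 rose and 0 fell, beside 2.92% of all genes (15 of the 59 passed at an unadjusted p under 0.05). Without each array in turn, 0 to 4 rose and 0 to 3 fell, with 0 in either direction without mutant array 3. The replicate number was also fitted as a block, which left 170 genes higher and 176 lower, and of the 59 genes 1 higher (SPT5) and 1 lower (SRB2). The deviations of same-numbered arrays from their strain means correlated at -0.23, -0.06 and -0.17. No mutant array correlated best with the wild-type array of its own number. Since the deviations of the 3 arrays of a strain sum to 0, these values cannot settle whether the numbers pair the samples. Without each array in turn, the median difference ran from -0.102 to -0.0404 for the Mediator head, from -0.00199 to 0.0570 for the Mediator middle and from -0.00822 to 0.0482 for TFIIH. It ran from -0.0721 to -0.00667 for the Paf1 complex, from 0.0105 to 0.0583 for the Mediator tail, from -0.0610 to -0.0240 for the polymerase, from 0.0330 to 0.0791 for the 3 kinase genes, from 0.0425 to 0.106 for the Mediator kinase module, from 0.0919 to 0.148 for the elongation factors and from -0.0570 to -0.0347 for the initiation factors. The causes of these shifts were not tested.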
